A study of Mus musculus with 2 samples.

Results

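Apelin, a peptide encoded by Apln, and its G protein-coupled receptor APJ, encoded by Aplnr, were examined in endothelial cells of the mouse lung. They are 2 of the 27998 genes in the deposited matrices, chosen by gene symbol. Apln (ENSMUSG00000037010) lies on chromosome X, 48025146 to 48034853, minus strand, and Aplnr (ENSMUSG00000044338) on chromosome 2, 85136225 to 85139923, plus strand, in the GENCODE M21 annotation of GRCm38, which is mm10. The data were 2 single-cell libraries, 1 labelled KO and 1 labelled WT, from C57BL/6J mice aged 10 to 12 weeks modelling hereditary hemorrhagic telangiectasia type 2, in which vessels are inherited with malformations. Lung cells had been sorted by flow cytometry for VE-cadherin, found at endothelial junctions, and against CD45, found on leukocytes. The labels name neither the gene knocked out, a driver of the knockout nor any treatment, and the sources used here do not give the number of animals behind a library. With 1 library a group there was no replicate, so no difference was tested. The 95% intervals given in parentheses (levels by the exact Poisson method, shares by Clopper-Pearson, ratios by the conditional binomial) cover counting error only, between these libraries or between cells of 1 library.

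Apelin is secreted and acts through APJ, which couples to inhibitory G proteins and to arrestins. In sprouting vessels Apln is a known marker of tip cells, the leading cells of a sprout, while Aplnr is found in veins and in the capillary cells behind the tip. In the adult mouse lung the pair marks the different capillary cells of the alveolus. Aerocytes, the large thin cells used for gas exchange, express Apln, and general capillary cells (gCap), which include the progenitors, express Aplnr.

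The promoter of Apln is shown because KO cells without UMIs of Id1 and Id3, known BMP-SMAD target genes, had high Apln. These are the 250 bases before the start of the gene (RefSeq, build GRCm38.p6, chrX:48034854-48035103, minus strand), 5′ to 3′, with the only match to the SMAD-binding element GTCTG, read on either strand, in capitals.
Apln: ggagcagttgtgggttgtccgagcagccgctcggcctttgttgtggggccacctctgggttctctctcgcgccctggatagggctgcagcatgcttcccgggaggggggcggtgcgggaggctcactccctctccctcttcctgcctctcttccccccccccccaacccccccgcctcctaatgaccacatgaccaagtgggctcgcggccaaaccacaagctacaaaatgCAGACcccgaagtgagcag
The match begins 19 bases before the start, and 42.2% of 32536 RefSeq promoter windows of this length hold the motif on either strand. No match was found in this window for the BMP-SMAD element GGCGCC, the hypoxia-response core ACGTG, the USF E-box CACGTG (which contains the hypoxia core) or the FOXO site GTAAACA. These motifs occur in 9.65%, 16.7%, 6.04% and 3.17% of the windows, in that order. The bases are 65.2% G and C.

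The KO matrix held 2196 barcodes with 17864581 UMIs (unique molecular identifiers, each counting 1 captured transcript), and the WT matrix 3482 barcodes with 25667220 UMIs. After filtering, 528 KO and 1562 WT cells were endothelial-like, with medians of 5044 and 4220 UMIs. The libraries stand apart in sex: 269 KO endothelial-like cells had Y-linked transcripts alone and 76 had Xist alone, whereas 0 WT cells had Y-linked transcripts alone and 1396 had Xist alone. Barcodes over the mitochondrial limit made up 30.5% of the KO and 15.1% of the WT matrix, and 12 barcodes occurred in both. Endothelial subclasses were set by clusters and markers from which Apln and Aplnr were left out. Each of gCap-like, aerocyte-like, arterial-like and venous-like clusters passed with at least 6 of its own markers, and cluster 3, a gCap-like cluster led by Esm1, was kept with gCap-like cells. Cells with 0 UMIs of Id1 and of Id3 and at least 2000 UMIs were called Id1/Id3-negative and taken out of the other classes in both libraries. These 2 genes are direct targets of BMP receptor signalling and are therefore the measure by which the cells were chosen. The disease is known to come from ACVRL1, the gene of the BMP9 and BMP10 receptor ALK1. Acvrl1 stood at 497 CPM (UMIs of a gene per 1000000 UMIs of the class) in Id1/Id3-negative KO cells. It stood at 1290 CPM in KO and 1301 CPM in WT gCap-like cells, and at 1842 CPM in KO and 1906 CPM in WT aerocyte-like cells. Reads of a 3′ library need not cover a deleted exon, so Acvrl1 levels do not show in which cells a gene was deleted.

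Apln and Aplnr were almost wholly endothelial in both libraries. Of the UMIs in cells kept, endothelial-like cells held 98.0% of Apln and 98.6% of Aplnr in KO, and 96.4% of Apln and 98.0% of Aplnr in WT. Apln had 1259 UMIs in KO and 748 UMIs in WT endothelial-like cells, or 468 CPM (442 to 494) and 109 CPM (102 to 117). Aplnr had 408 UMIs in KO and 1360 in WT, or 152 CPM (137 to 167) and 199 CPM (188 to 209). Epithelial cells of the alveolar type 2 kind (AT2-like), in which neither transcript belongs, were used to gauge free RNA in the droplets. There Apln stood at 1.67 CPM in 538 KO and 1.14 CPM in 799 WT cells, and Aplnr at 0.463 CPM in KO and 1.14 CPM in WT. These cells were deeper than the endothelial-like cells, at medians of 20044 UMIs in KO and 17762 UMIs in WT. Their CPM and thinned shares are therefore not a like-for-like measure of free RNA in endothelial-like cells.

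Among the 4 named vessel classes Apln was high in aerocyte-like cells, and it was high in the Id1/Id3-negative KO cells and in cluster 4. In KO, the order of the gated cells and the named classes was Id1/Id3-negative cells at 1123 CPM (1041 to 1210; 692 UMIs in 118 cells), aerocyte-like cells at 713.5 CPM (629 to 806; 258 UMIs in 58 cells) and gCap-like cells at 15.5 CPM (9.20 to 24.5; 18 UMIs in 232 cells). KO venous-like cells had 1 UMI in 13 cells and KO arterial-like cells 0 UMIs in 21 cells. For the arterial-like cells the limit of 3 counts is 24.3 CPM and the Poisson interval reaches 29.9 CPM. The intervals of the first 3 lie apart, while gCap-like, venous-like and arterial-like cells cannot be ordered at these counts. Of the unnamed clusters without their gated cells, the 39 KO cells of cluster 4 stood at 1271 CPM (1126 to 1430), which overlaps the Id1/Id3-negative cells. Cluster 7, the platelet-led cluster, was led by Pf4 and Ppbp and was shallow, with a median of 1225 UMIs in KO and 1167 UMIs in WT. Its Apln level was 228 CPM (121 to 389) in KO and 90.4 CPM (39.0 to 178) in WT. In WT, aerocyte-like cells stood first at 312 CPM (289 to 336; 698 UMIs in 401 cells). The 57 WT cells that met the Id1/Id3-negative gate stood at 46.1 CPM (19.9 to 90.9; 8 UMIs), and gCap-like cells at 8.48 CPM (5.72 to 12.1; 30 UMIs in 898 cells). WT venous-like cells had 3 UMIs, all in 1 of 54 cells, and WT arterial-like cells 1 UMI in 94 cells. Aerocyte-like over gCap-like cells, the ratio was 46.0 (28.5 to 78.8) in KO and 36.8 (25.5 to 54.9) in WT, and these intervals overlap.

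**Figure D1:**
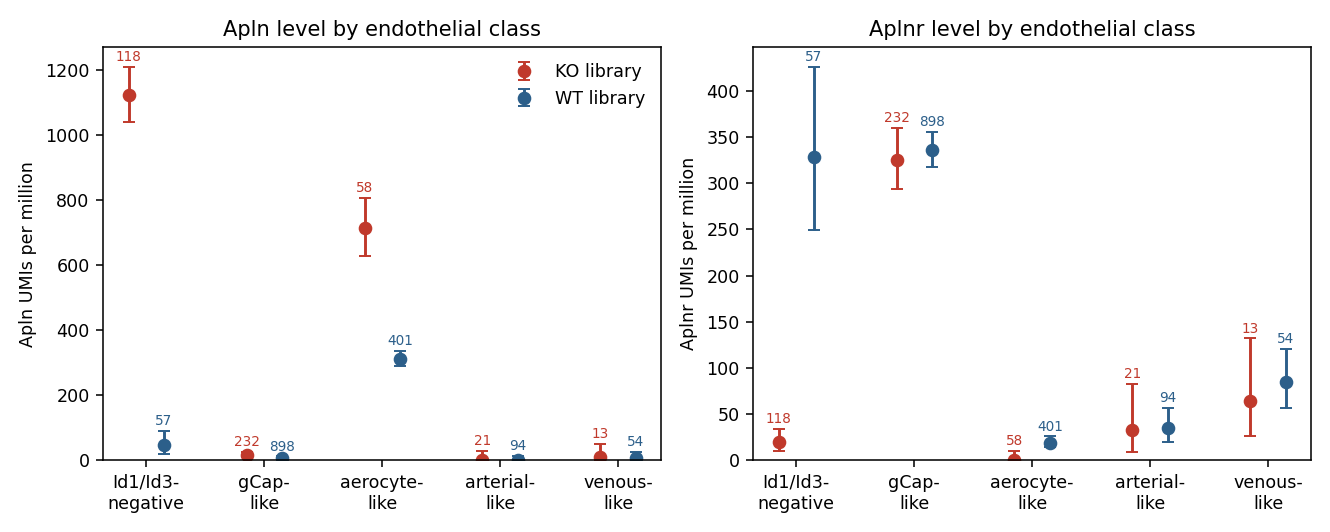
Apln (left) and Aplnr (right) in CPM for each endothelial class, KO in red left of WT in blue; points are summed UMIs over the class total, bars are exact 95% Poisson intervals and the small numbers are cells. Among the classes drawn, Apln is highest in the 118 Id1/Id3-negative KO cells at 1123 CPM, while Aplnr stands near 330 CPM in gCap-like cells of both libraries.

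Among the named classes, Aplnr was highest in gCap-like cells of both libraries, had 0 UMIs in KO aerocyte-like cells and was low in WT aerocyte-like cells. It stood at 325 CPM (293 to 360; 377 UMIs) in KO and 336 CPM (317 to 356; 1189 UMIs) in WT gCap-like cells. Venous-like cells were next among the named classes with 7 UMIs, or 64.1 CPM (25.8 to 132), in KO and 30 UMIs, or 84.5 CPM (57.0 to 121), in WT. In WT, the 57 gated cells at 329 CPM and cluster 7 at 282 CPM (183 to 417) stood above them. Arterial-like cells had 4 UMIs, or 32.4 CPM (8.82 to 82.9), in KO and 15 UMIs, or 34.6 CPM (19.4 to 57.1), in WT. Venous-like over arterial-like cells, the ratio was 1.98 (0.503 to 9.22) in KO, which does not set their order, and 2.44 (1.27 to 4.88) in WT. No Aplnr UMI was found in the 58 KO aerocyte-like cells, where the limit of 3 counts is 8.30 CPM and the Poisson interval reaches 10.2 CPM. In WT, 43 UMIs in 22 of 401 aerocyte-like cells gave 19.2 CPM (13.9 to 25.9). The 5 highest of these WT aerocyte-like cells held 55.8% of the 43 UMIs. gCap-like over aerocyte-like cells, Aplnr was 17.5-fold higher (12.9 to 24.3) in WT. In KO the gCap-like level was 39.2-fold the aerocyte-like limit of 3 counts, a value without an interval. gCap-like cells stood 5.08-fold (2.44 to 12.7) above venous-like cells in KO and 3.98-fold (2.77 to 5.92) in WT.

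Within matched classes, Apln was higher in KO than in WT aerocyte-like cells, and the interval of Aplnr in gCap-like cells included 1, except under the 3 settings named with it. In aerocyte-like cells the Apln ratio of KO to WT was 2.29 (1.98 to 2.64). It passed the call used here, at least 1.5-fold with intervals apart, which 1.54% of 8333 genes passed as higher in this class and 1.79% as lower. With each cell thinned to 1500 UMIs, 49.1% (35.4 to 62.9) of KO and 30.4% (25.8 to 35.3) of WT aerocyte-like cells had an Apln UMI, against 79.3% and 60.8% unthinned at medians of 6154 and 5596 UMIs. In AT2-like cells these shares were 0.186% in KO and 0.376% in WT thinned, and 3.16% and 2.00% unthinned, at medians of 20044 and 17762 UMIs. The aerocyte difference lay in cluster 2, at 766 CPM in 48 KO and 302 CPM in 303 WT cells, a ratio of 2.54 (2.17 to 2.95). In cluster 5, the smaller and shallower aerocyte-like cluster, Apln stood at 361 CPM in 10 KO and 365 CPM in 98 WT cells, a ratio of 0.991 (0.560 to 1.65). Igfbp3, the leading gene of the almost KO-only cluster 4, had 2 UMIs in the 58 KO aerocyte-like cells.

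In gCap-like cells the Aplnr ratio of KO to WT was 0.968 (0.860 to 1.09), and the Apln ratio was 1.83 (0.961 to 3.39) on 18 and 30 UMIs. Of 8498 genes in this class, 1.68% were called higher and 2.93% lower in KO, and neither gene was among them. The Aplnr ratio was 0.991 in cluster 0, 0.857 in cluster 1 and 1.06 in the Esm1-led cluster 3, and each interval includes 1. Among cells with 1000 or more genes and no more than 5% mitochondrial UMIs, the log2 ratio was -0.25 (-0.47 to -0.04). With a looser filter (200 or more genes, no more than 20% mitochondrial UMIs) it was -0.21 (-0.40 to -0.02), and after thinning -0.32 (-0.65 to -0.0042), so these 3 intervals exclude 0. With every cell weighted alike it was -0.07, against -0.05 as reported. An Aplnr UMI was found in 69.0% of KO and 61.2% of WT gCap-like cells, but in 33.8% and 39.4% after thinning, so the order of these shares turned with depth. Apln shares in gCap-like cells were 6.47% in KO and 3.12% in WT, but 0.901% (0.109 to 3.22) and 1.32% (0.659 to 2.34) thinned, so their order also turned. The thinned AT2-like shares were 0.186% (0.00471 to 1.03) in KO and 0.376% (0.0777 to 1.10) in WT. These intervals overlap those of gCap-like cells. By summed UMIs the levels lay apart. Apln stood at 15.5 CPM (9.20 to 24.5) in KO gCap-like and 1.67 CPM (0.988 to 2.63) in KO AT2-like cells. In WT it stood at 8.48 CPM (5.72 to 12.1) and 1.14 CPM (0.651 to 1.85). AT2-like cells are not a like-for-like measure, so the part of free RNA in gCap-like Apln was not tested. In venous-like cells the Aplnr ratio was 0.758 (0.281 to 1.76) and in arterial-like cells 0.935 (0.226 to 2.93), and both intervals include 1. With classes set by per-cell marker score, the venous-like log2 ratio of Aplnr was -0.84 (-1.65 to -0.10), against -0.40 as reported. That of Apln was 4.66 (3.82 to 5.61), against 0.12 (-5.60 to 3.75) as reported, so both depend on how venous-like cells are set. In those classes 1.37% and 1.28% of genes were called higher and 1.16% and 0.975% lower.

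Apln per cell ranged widely among Id1/Id3-negative KO cells. Of the 118 cells, 34 had 0 Apln UMIs, 12 had 1, 23 had 2 to 4, 26 had 5 to 9 and 23 had 10 or more, with a highest cell of 41 UMIs. Among aerocyte-like cells, 7 of 58 (12.1%) in KO and 2 of 401 (0.499%) in WT had 10 or more, with highest cells of 19 and 10 UMIs. At 0 UMIs were 20.7% of KO and 39.2% of WT aerocyte-like cells. Aplnr in gCap-like cells, at a lower level than Apln in the gated KO cells, had highest cells of 9 UMIs in KO and 10 in WT. There 5 or more UMIs occurred in 13 of 232 KO cells, and 5 to 9 in 39 and 10 or more in 1 of 898 WT cells. Because the levels differ, these counts do not compare the spread from cell to cell.

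**Figure D2:**
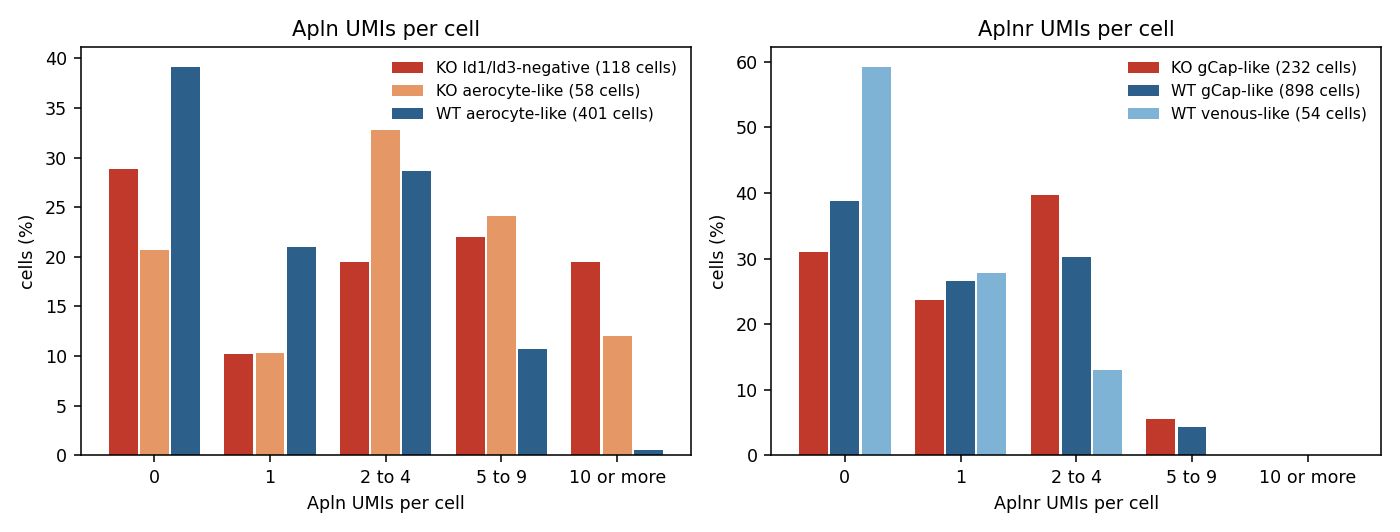
Share of cells in percent by UMIs per cell, for Apln in KO Id1/Id3-negative, KO aerocyte-like and WT aerocyte-like cells (left) and for Aplnr in KO gCap-like, WT gCap-like and WT venous-like cells (right). Cells with 10 or more Apln UMIs make up 19.5% of KO Id1/Id3-negative, 12.1% of KO aerocyte-like and 0.499% of WT aerocyte-like cells.

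Apln was higher and Aplnr lower in the Id1/Id3-negative KO cells than in the other KO endothelial-like cells. Apln stood at 1123 CPM in them and 273 CPM (251 to 297) in the 410 other KO endothelial-like cells, a ratio of 4.11 (3.67 to 4.60). Aplnr stood at 19.5 CPM (10.1 to 34.0; 12 UMIs in 10 cells) and 191 CPM (173 to 211), a ratio of 0.102 (0.0523 to 0.180). Of 8418 genes, 6.4% were called higher and 5.93% lower in this contrast, Apln among the higher and Aplnr among the lower. Set beside single classes, Apln in Id1/Id3-negative KO cells was 1.57-fold (1.36 to 1.82) the level of KO aerocyte-like cells and 72.3-fold (45.4 to 123) that of KO gCap-like cells. The 410 other cells include the 232 gCap-like cells, where Aplnr was highest. Aplnr in the gated cells was 0.0599-fold (0.0307 to 0.106) the KO gCap-like level. Against KO arterial-like cells its ratio was 0.601 (0.182 to 2.56), and KO aerocyte-like cells had 0 Aplnr UMIs. Low Aplnr was thus not particular to the gated cells. The same gate gave another picture in WT, where the 57 cells had Aplnr at 329 CPM (249 to 426) and Apln at 46.1 CPM. Their median depth was 2813 UMIs, against 4905 in KO, and 41 of the 57 lay in gCap-like clusters, and the part of depth in passing the gate was not tested.

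The gate and the clusters did not pick the same cells, and Apln went with the cluster. Cluster 4, led by Igfbp3, Peg3 and Trp53i11, held 3 gCap markers (Gpihbp1, Kit and Adgrl3). It was left unnamed because no gCap marker was among its 10 leading genes. It held 130 KO cells and 1 WT cell, and 91 of the 118 gated KO cells lay in it. Apln stood at 1345 CPM (1244 to 1451) in those 91 cells and at 1271 CPM (1126 to 1430) in the 39 cells of the cluster that had Id1 or Id3 UMIs or too few UMIs for the gate. In those 39 cells, 61.0% of the Apln UMIs lay in 5 cells. In the 27 gated cells outside the cluster it stood at 274 CPM (191 to 382), and 33 of their 35 Apln UMIs were in 12 cells of aerocyte-like clusters. In the 371 remaining KO cells it stood at 156 CPM (139 to 175). Aplnr stood at 18.4 CPM in the 91 cells and 27.5 CPM in the 39 cells of cluster 4, against 210 CPM in the 371. In the 27 it stood at 23.5 CPM (4.85 to 68.8) on 3 UMIs. All 3 were in the 7 gated cells of gCap-like cluster 1, which stood at 145 CPM of Aplnr and had 1 Apln UMI. With 1 KO library, a cell state cannot be told apart from an effect of that library.

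Markers listed for other cells were present among the Id1/Id3-negative KO cells. The summed level of the 4 platelet markers was 490 CPM in them, against 0 to 8.10 CPM in the other KO classes and 0 to 8.45 CPM in WT. Cluster 7, led by the platelet markers Pf4 and Ppbp, is not among these other KO classes, and 2 of the gated KO cells lay in it. Ppbp, a platelet chemokine, was found in 0.847% of the gated cells. The 7 lymphatic markers summed to 5937 CPM, against 628 to 3141 CPM in the other KO classes, and 314 to 2772 CPM in WT, and none of the 7 was at 0 in the gated KO cells. Without lymphatic-marker cells (7 KO, of which 4 gated, and 3 WT) the log2 ratio of Apln to other KO cells was 2.07 in place of 2.04, and without the platelet-led cluster 2.03. The 8 AT2 markers summed to 2321 CPM, within the 1709 to 2401 CPM of the other KO classes.

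Across all KO endothelial-like cells Apln was lower the more Id1 and Id3 UMIs a cell had, counted after thinning to 1500 UMIs. It stood at 873 CPM (767 to 990) in 187 KO cells with 0 such UMIs, 222 CPM in 132 cells with 1 to 2, 96.1 CPM in 111 cells with 3 to 5 and 0 CPM in 43 cells with 6 or more. In WT the levels were 99.4, 113, 72.9 and 45.8 CPM. Outside cluster 4 the KO levels were 141, 190, 96.1 and 0 CPM, so the step at 0 Id UMIs was within counting error there. Within aerocyte-like clusters, KO stood at 556, 756 and 556 CPM in the first 3 bins, with intervals that overlap throughout, and WT at 356, 298, 280 and 215 CPM. In the gCap-like clusters, the 38 KO cells without an Id UMI had 0 Apln UMIs, as against 2 UMIs in 154 WT cells. Aplnr in gCap-like clusters ran at 228, 276, 317 and 272 CPM over the 4 bins in KO, and at 433, 414, 348 and 230 CPM in WT.

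**Figure D3:**
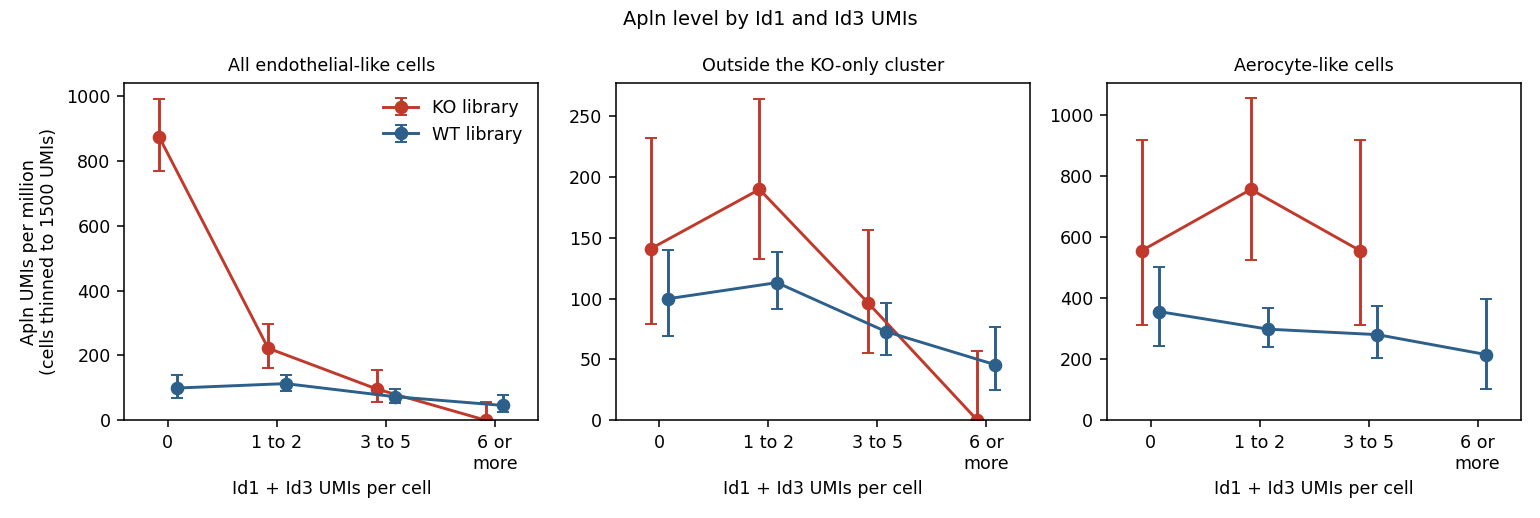
Apln in CPM by the Id1 plus Id3 UMIs of a cell, after thinning each cell to 1500 UMIs, for all endothelial-like cells, those outside cluster 4 and those of aerocyte-like clusters; KO in red, WT in blue, bars are exact 95% Poisson intervals, and bins under 10 cells are not drawn. The KO level of 873 CPM at 0 Id UMIs is 141 CPM outside cluster 4.

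The KO library mixes sexes, and Apln is X-linked, so the values were also taken within sex-typed cells. Of Id1/Id3-negative KO cells, the 52 with Xist alone had Apln at 1330 CPM (1197 to 1474) and the 43 with Y-linked transcripts alone at 962 CPM (842 to 1095), a ratio of 1.38 (1.17 to 1.64). Among Y-linked KO cells, Id1/Id3-negative over other cells gave 962 against 202 CPM, a ratio of 4.75 (3.96 to 5.70). Among Xist-alone KO cells it gave 1330 against 1061 CPM, a ratio of 1.25 (1.05 to 1.495), with 24 other cells. For Aplnr, the Y-linked cells gave 16.7 against 205 CPM, a ratio of 0.0813 (0.0220 to 0.211). The Xist-alone cells gave 18.3 against 31.1 CPM on 5 and 6 UMIs, a ratio of 0.588 (0.142 to 2.31) whose interval includes 1. Of the 76 Xist-alone KO cells, 63 lay in cluster 4, where Apln stood at 1434 CPM, against 393 CPM in the 13 outside, a ratio of 3.65 (2.62 to 5.21). Among Y-linked KO cells, 46 lay in the cluster at 1075 CPM and 223 outside at 173 CPM, a ratio of 6.20 (5.16 to 7.45). In aerocyte-like cells, the 40 Y-linked KO cells over all WT cells gave an Apln ratio of 2.25 (1.90 to 2.64). With 3 Xist-alone KO aerocyte-like cells and no WT cell with Y-linked transcripts alone, sex and genotype cannot be told apart in the comparison of the libraries. Within KO, 52 gated and 24 other cells had Xist alone, and 43 gated and 226 other cells had Y-linked transcripts alone. The sexes were thus unevenly spread over this contrast too, and the part of sex or of single animals in it was not tested.

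Ligand and receptor were seldom found in the same cell. UMIs of both occurred in 20 of 528 KO cells (3.79%, 2.33 to 5.79) and 40 of 1562 WT endothelial-like cells (2.56%, 1.84 to 3.47). The product of the single shares over all endothelial-like cells would give 63.8 KO and 117 WT cells. After thinning, 4 of 473 KO and 6 of 1440 WT cells had both, where the products give 19.6 and 34.6. Within a class the counts lay close to the product: 7 of 118 Id1/Id3-negative KO cells against 7.12, 8 of 232 KO and 20 of 898 WT gCap-like cells against 10.3 and 17.1, and 17 of 401 WT aerocyte-like cells against 13.4. No KO aerocyte-like cell had both, which allows up to 6.16% of cells. Across classes the cells with both were fewer than the product, and within each of these classes they were near it.

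**Figure D4:**
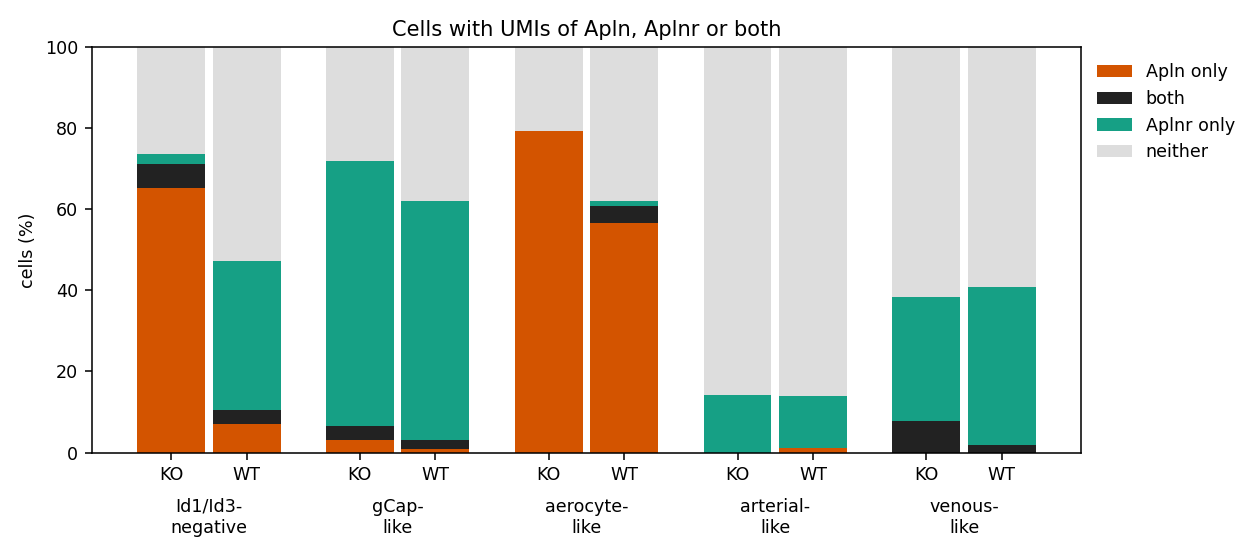
Percent of cells with UMIs of Apln alone, both genes, Aplnr alone or neither, in each endothelial class, KO left of WT, unthinned. Cells with both are 3.79% of KO and 2.56% of WT endothelial-like cells, and the bars of Id1/Id3-negative cells differ between the libraries, with Apln in 71.2% of KO and 10.5% of WT cells.

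The rest of the apelin pathway was followed with a list of 40 genes, 39 of them in the files, without Apln and Aplnr. Among Id1/Id3-negative over other KO endothelial-like cells, 32 could be compared, and 2 were called higher and 5 lower, beside 6.4% higher and 5.93% lower among all genes. Their median log2 ratio was 0.12, against -0.03 over all genes compared. Beside Apln, the ligand Apela had 0 UMIs in both sets. Agtr1a, the related angiotensin receptor, had 1 UMI in each. Furin and Pcsk7, proprotein convertases, stood at 92.5 against 72.8 CPM and 27.6 against 22.7 CPM, neither called. Of the signalling genes next to the receptor, Gnao1, a G protein subunit, stood at 118 against 63.6 CPM and was called higher. Gnai3, another subunit, at 69.8 against 109 CPM, and Rgs5, a regulator of G protein signalling, at 6.49 against 31.8 CPM, were called lower. Downstream, the flow-responsive factors Klf2 (933 against 2226 CPM) and Klf4 (414 against 1006 CPM) were called lower, and the receptor Fgfr1 (60.1 against 31.8 CPM) higher. Of 6 known regulators of Apln, 1 was called, Epas1 (HIF-2alpha), at 1355 against 2329 CPM and lower. Hif1a stood at 117 against 81.5 CPM, a ratio of 1.43 (1.07 to 1.90), under the 1.5-fold limit.

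Between libraries, called pathway genes were counted beside the shares called among all genes. The pathway list was chosen with earlier results of these libraries known, so its counts do not stand as independent evidence. In aerocyte-like cells, where 1.54% of all genes were called higher and 1.79% lower, 29 could be compared, with 1 called higher in KO, Klf4 at 1286 CPM in KO and 817 CPM in WT, and 2 lower, Mef2c at 108 and 178 CPM and Sp1 at 55.3 and 101 CPM. In gCap-like cells, where the shares were 1.68% higher and 2.93% lower, 30 could be compared, with 1 higher (Klf4, at 1076 CPM in KO and 602 CPM in WT) and 4 lower. These were Foxo1 (110 and 179 CPM), Usf1 (27.6 and 45.8 CPM), Hdac5 (21.6 and 46.3 CPM) and Gata6 (22.4 and 41.8 CPM).

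Of the tip cell genes with which Apln is usually listed, 20 besides Apln could be compared in the Id1/Id3-negative KO cells. Against the other KO cells 13 of the 20 were called higher and 2 lower, beside 6.4% higher and 5.93% lower among all genes. Their median log2 ratio was 1.17, against -0.03 over all genes compared. Igfbp3, a binding protein of insulin-like growth factors, stood at 1368 against 113 CPM, a ratio of 12.1 (10.4 to 14.0). Cxcr4, a chemokine receptor of sprouting cells, stood at 315 against 41.0 CPM, a ratio of 7.69 (5.93 to 10.0). Angpt2, an antagonist of the receptor Tie2, stood at 250 against 50.1 CPM, a ratio of 4.99 (3.86 to 6.46). The 2 called lower were Vegfa (51.9 against 247 CPM) and Kdr, its receptor (464 against 748 CPM). Esm1, which marks tip cells, stood at 180 against 165 CPM, a ratio of 1.09 (0.872 to 1.35). In aerocyte-like cells, KO over WT, 5 of 16 were called higher and 0 lower, beside 1.54% and 1.79% of all genes, with a median log2 ratio of 0.48, against -0.03. They were the basement membrane genes Col4a1 (2865 and 1841 CPM), Col4a2 (1764 and 1140 CPM), Lamc1 (357 and 194 CPM) and Lama4 (7 and 9 UMIs in all), and the adhesion molecule Mcam (335 and 192 CPM). In gCap-like cells, with 1.68% of all genes higher and 2.93% lower, 0 of 19 were called higher and 3 lower in KO: Esm1 (181 and 354 CPM), Cxcr4 (29.3 and 79.7 CPM) and Angpt2 (32.8 and 65.8 CPM). In arterial-like cells 0 of 19 were called higher and 5 lower, beside 1.28% and 0.975% of all genes, with a median log2 ratio of -0.15. In venous-like cells 0 of 16 were called higher and 2 lower, beside 1.37% and 1.16%, with a median of -0.62. The tip cell list was chosen with earlier results of these libraries known, so its counts do not stand as independent evidence.

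**Figure D5:**
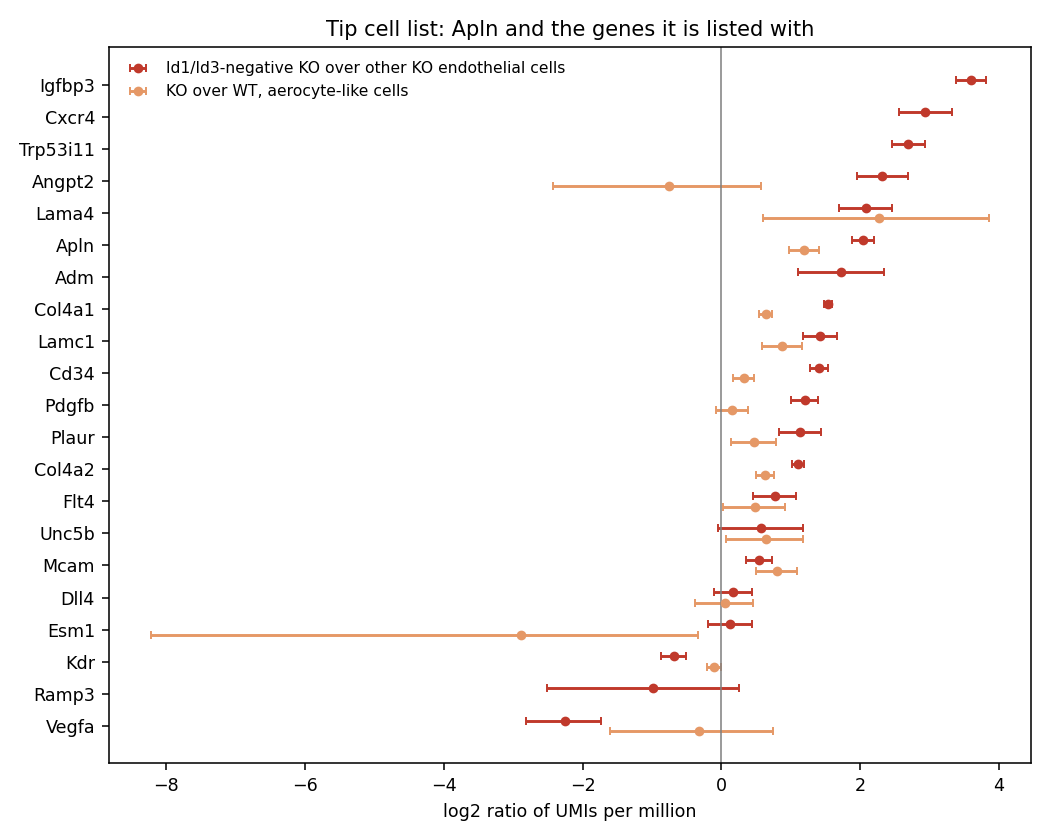
Log2 ratios of CPM for Apln and the other tip cell genes that could be compared, for Id1/Id3-negative over other KO endothelial-like cells (red) and for KO over WT aerocyte-like cells (orange), with conditional binomial 95% intervals. Apln lies at 2.04 in the first contrast, between Igfbp3 at the top and Vegfa at the bottom, and at 1.19 in the second, between Lama4 at 2.27 and Esm1 at -2.89.

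The genes whose levels were most like each member were ranked over 12 endothelial groups of at least 20 cells, by Pearson's r of log2(CPM + 10) among 3299 genes. This is a description across cell groups that share 2 libraries and their depth. For Apln they were Pxn (r = 0.94), which encodes the focal adhesion protein paxillin, Cnn3 (0.93), an actin-binding calponin, Marcks (0.90), Lamc1 (0.90), a laminin chain, and Ccnd1 (0.90), cyclin D1. Pxn ran between 87.8 and 216 CPM and Ccnd1 between 33.8 and 505 CPM over the groups, both highest in Id1/Id3-negative or cluster 4 KO cells. For Aplnr they were Cav1 (0.90), which encodes caveolin-1, Gbp4 (0.89), a guanylate-binding protein, AU020206 (0.88), Amotl1 (0.84), an angiomotin family protein of cell junctions, and Gbp7 (0.84). Cav1 ran between 1120 CPM in KO aerocyte-like and 2238 CPM in WT gCap-like cells. Apln and Aplnr had r = -0.55 with each other over the same groups.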

How the data were processed

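The authors deposited raw UMI counts per gene and barcode for each library, per the file headers; Cell Ranger 3.0.1 and mm10 are named in the submitters' processing notes. Cells needed 500 or more genes and no more than 10% mitochondrial UMIs, and Scrublet (scanpy 1.11.5) removed 11 KO (0.830%) and 16 WT (0.583%) doublets. Cells were clustered with Leiden (leidenalg 0.10.2, resolution 1, 2000 variable genes, 30 principal components, 20 neighbours) in 2 steps, all cells and then endothelial-like cells without sex-linked genes, haemoglobins and markers of other types. Apln and Aplnr entered neither clustering nor naming. To be named, a cluster had to hold 3 of a class's markers, each detected in 10% of its cells or more and 2-fold above the median of other clusters. An endothelial subclass also needed at least 1 of its markers among the 10 leading genes of the cluster, with no other class holding more there. Levels are UMIs summed over the cells of a class in a library, as CPM. A gene was called at 1.5-fold with non-overlapping Poisson intervals among genes of at least 10 CPM on average. Levels of 0 were given a limit of 3 counts. Genes named as alike were the 5 with the highest r having at least 100 CPM in a group; of the lists, called members and their direction are given. The calling step was tested on simulated data. The members and lists were chosen with earlier results of these data known.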

Additional observations from a re-analysis of the deposited data

How the results depend on the processing

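Over 16 other settings, 180 of 200 recomputed ratios and shares stayed within counting error of the reported value, and none turned its direction while called. The 180 include values that a setting could not change, such as the shares with both genes under another gate. Thinning kept 5 of 12 values within counting error, and leaving out the 5 highest cells kept 4 of 8. The log2 ratio of Apln in Id1/Id3-negative over other KO cells was 1.77 under a stricter filter (1000 genes or more, 5% mitochondrial UMIs or less), 2.29 thinned, 2.38 with a gate of at most 1 UMI and 2.23 without the 5 highest cells. It was 3.01 with the KO-only cluster in place of the gate, 1.86 without the Esm1-led cluster and 2.25 in Y-linked KO cells alone, settings chosen after seeing the data, as was leaving out the platelet-led cluster. That of Aplnr was -4.38 without the 5 highest cells. KO over WT, Aplnr in gCap-like cells had -0.25 under that filter and -0.32 thinned, Apln in gCap-like cells -0.55 thinned (0.87 as reported, its interval including 0 both times), Apln in aerocyte-like cells 0.90 without the 5 highest cells, and Apln in venous-like cells 4.66 with classes set by marker score. Aerocyte-like over gCap-like, Apln had 6.26 in WT under that filter and 6.85 in KO thinned. gCap-like over aerocyte-like in WT, Aplnr had 4.71 with cells weighted alike, 4.91 thinned and 5.22 without the 5 highest cells. Shares with both genes were 0.846% in KO and 0.417% in WT thinned. The cause of these shifts was not tested. No value came from thinning for Apln in venous-like cells, from leaving out 5 cells for arterial-like and venous-like cells, or from either cell-wise setting for shares with both genes. Of the 5 genes most like each member, 4 remained for Apln and 2 for Aplnr with 1 CPM added, and likewise with Spearman's rho. No paired analysis was possible because each group is 1 library. The number of cells, 21 KO and 94 WT arterial-like and 13 KO and 54 WT venous-like, limits what these classes can show.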
